A study of Mus musculus with 7 samples.

Results

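The 35 glycolysis and hypoxia genes described here are glycolytic enzymes, carriers of glucose and lactate, and oxygen-sensing genes and targets of the transcription factor HIF-1. They were chosen by symbol, and each symbol mapped to 1 row among the 51789 genes of the deposited count table. Aldoa has a second identifier in the symbol table with no row among the counts. The libraries were mouse granulocytes labelled untreated: 3 were knockout (KO) for Alox15, the arachidonate lipoxygenase that oxidises polyunsaturated fatty acids, and 4 were wild type (WT). The sources used here do not give the strain, age, sex or tissue of origin of the animals, the deleted part of Alox15 or any sorting. The labels do not say from how many animals the replicates were taken, and p-values speak only of the spread among the 7 libraries, part of which may be technical. Reads were 3′ tags of polyA RNA from a QuantSeq kit, which gives about 1 tag per transcript whatever its length, so levels are given as CPM, counts scaled to the size of the library, without division by length.

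Glycolysis splits glucose into pyruvate in the cytosol, and lactate dehydrogenase turns pyruvate into lactate, which leaves the cell through monocarboxylate carriers. Neutrophils, the most common granulocytes, hold few mitochondria and make most of their ATP this way. HIF-1 is a dimer whose alpha subunit is marked for breakdown by oxygen-dependent prolyl hydroxylases; when oxygen is low it accumulates and binds promoters at the core letters ACGTG or GCGTG, many of them at genes of glycolysis.

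Total counts ran from 3228292 to 5348256 in KO and from 3606843 to 5657192 in WT. Alox15 had 1 count over the KO libraries and 0 over the WT libraries, so it did not check the genotype labels. Neutrophil markers were present in every library but uneven: 10 of 10 were tested, and their summed level ran from 2139 CPM in KO 3 to 25318 CPM in KO 1, and from 2876 CPM in WT 2 to 30656 CPM in WT 1. The T cell list, with 9 of 10 genes tested, summed to 333, 417 and 895 CPM in KO 1, 2 and 3 and to 267, 604, 423 and 588 CPM in WT 1, 2, 3 and 4. Its sum was thus highest in KO 3 and WT 2, but only 2 of the 9 tested genes had these as their 2 highest libraries. The 8 macrophage markers summed to 249 to 1169.7 CPM in KO and 173 to 509.6 CPM in WT. The 5 B cell markers summed to 38.4 to 92.9 CPM and 4.18 to 70.9 CPM, the 5 erythroid markers to 629 to 2023 CPM and 252 to 2010.2 CPM, the stromal and tumour list to 153 to 247 CPM and 92.8 to 282 CPM, and the eosinophil list to 2.14 to 13.8 CPM and 2.35 to 17.9 CPM, KO first each time. The eosinophil peroxidase gene Epx and the epithelial gene Epcam were at 0 in all libraries. KO 2 and KO 3 also carried another stem in their sample description than the other 5 libraries and expressed Xist, the transcript of the inactive X chromosome in females (at 382 and 102 CPM, against 1.75 CPM in KO 1 and 0.896 to 6.11 CPM in WT), so stem, sex and part of the genotype contrast cannot be told apart. KO 3 and WT 2 were the 2 libraries lowest in neutrophil markers. In such mixed material, fewer cells of a type and less RNA per cell cannot be told apart.

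The members whose level differed most between libraries were Pfkfb4, Hk3, Slc16a3 and Pfkfb3 among those with a mean of at least 10 CPM and an entry in the promoter table. Slc16a3 encodes the lactate exporter MCT4, Pfkfb3 and Pfkfb4 the bifunctional enzymes that set the level of the sugar bisphosphate that activates phosphofructokinase, and Hk3 a hexokinase found in myeloid cells. The 250 bases before the RefSeq start of each (build GRCm38.p6, and the farthest upstream of 2 windows for Pfkfb3) were searched for the HIF-1 core. These genes were taken for the width of their range, not for a shared order of libraries. The whole windows are shown for Slc16a3, at chr11:120948817-120949066 on the plus strand, and Hk3, at chr13:55021386-55021635 on the minus strand. GENCODE M21 places 148 bases of the Pfkfb3 window and 124 of the Pfkfb4 window in the first exon, so for these the match is shown with 10 bases on either side, at chr2:11553975-11553999 on the minus strand for Pfkfb3 and chr9:108991775-108991799 on the plus strand for Pfkfb4. All 250 bases of the Slc16a3 window lie inside the longest GENCODE model of that gene, 14 of them in an annotated exon, and none of the Hk3 window does. Sequences run 5′ to 3′ on the gene's strand, and capitals mark ACGTG or GCGTG on either strand.
Slc16a3: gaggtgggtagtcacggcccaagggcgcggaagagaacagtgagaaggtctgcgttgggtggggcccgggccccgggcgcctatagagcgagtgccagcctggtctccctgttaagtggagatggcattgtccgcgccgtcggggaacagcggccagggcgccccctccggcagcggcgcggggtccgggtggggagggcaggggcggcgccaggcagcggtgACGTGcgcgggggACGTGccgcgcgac
Pfkfb3: ccgcgccgtgACGTGccaagctgtg
Pfkfb4: gacggatgggGCGTGcttagtccaa
Hk3: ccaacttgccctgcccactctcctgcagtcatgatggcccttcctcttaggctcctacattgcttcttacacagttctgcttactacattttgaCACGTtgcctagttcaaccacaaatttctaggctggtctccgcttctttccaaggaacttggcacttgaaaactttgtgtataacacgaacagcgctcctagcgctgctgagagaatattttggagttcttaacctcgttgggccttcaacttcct

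Slc16a3 had ACGTG at 2 places, whose first bases lie 27 and 14 bases before the start. Pfkfb3 had it once, 60 bases before the start, Hk3 had it once on the other strand, with the first base of the match 156 bases before the start, and Pfkfb4 had GCGTG once, 117 bases before the start. Over all 32851 promoter windows of this length, 38.6% held ACGTG or GCGTG on either strand, 16.6% held ACGTG and 28.2% held GCGTG. Of the 32 members with an entry, 29 had a window with one or the other core, 20 with ACGTG and 21 with GCGTG, over 46 windows of which 80.4% held one. ACGTG is also part of the E-box CACGTG, which stood in a window of 6 members, in 13.0% of the 46 member windows and in 6.02% of all windows. A match is a description of letters, not evidence of binding. Slc2a3, Bnip3l and Ndrg1 had no entry.

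No member passed the test of knockout against wild type. With edgeR's quasi-likelihood test and Benjamini-Hochberg adjustment over 12506 genes, 33 of the 35 members were tested and 0 were called, where 0% of all genes tested were called. At an unadjusted p under 0.05 there were 0 members and 1.23% of all genes tested, and the KO and WT libraries failed to overlap for 0 members and 3.13% of all genes (1.57% higher and 1.57% lower in KO). DESeq2 also called 0 members and had 0 at an unadjusted p under 0.05. The log2 fold change was positive for 17 members and negative for 16, where 51.4% of all genes were positive. The median over the 33 members was 0.01, beside 0.01 over all genes tested. The smallest unadjusted p of a member was 0.213, for Ankrd37, and every member had an edgeR adjusted p of 0.99995. A p that misses the threshold does not show that a level was the same. The standard errors of the members' log2 fold changes ran from 0.28 for Eno1 to 0.93 for Aldoc.

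**Figure D1:**
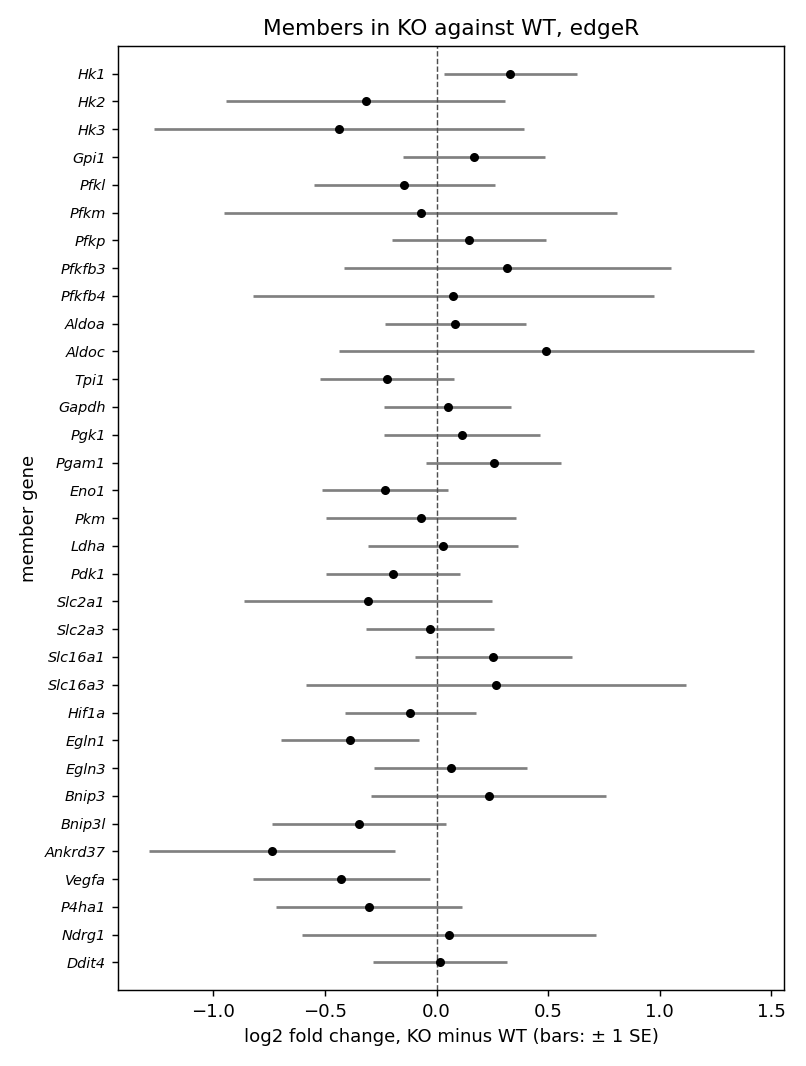
Log2 fold change (x axis, KO minus WT) of the 33 tested members from edgeR, with bars of 1 standard error. Members run down the page by role; the values lie between -0.74 for Ankrd37 and 0.49 for Aldoc, and none passed the test.

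Hexokinases trap glucose in the cell as a phosphate. Hk1, the hexokinase of most tissues, stood at 194, 164 and 264 CPM in KO 1, 2 and 3 and at 221, 136, 134 and 167 CPM in WT 1, 2, 3 and 4, a log2 fold change of 0.33 ± 0.30 (SE). Its ranges overlapped, with the highest value in KO 3. Hk2, the inducible hexokinase and a HIF-1 target, stood at 615, 266 and 219.7 CPM in KO and at 1041, 205, 249 and 337 CPM in WT (log2 fold change -0.32 ± 0.63, SE). Here WT 1 and KO 1 were the highest and KO 3 and WT 2 the lowest. Hk3 stood at 35.4, 35.8 and 5.84 CPM in KO and at 60.7, 4.70, 26.6 and 47.4 CPM in WT (log2 fold change -0.44 ± 0.83, SE). KO 3 and WT 2 again lay below every other library, by several-fold, while the genotypes overlapped.

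Gpi1, the glucose phosphate isomerase, was among the most abundant members, at 909, 727 and 1289.8 CPM in KO and 835, 980.2, 932 and 725 CPM in WT. Its highest libraries were KO 3 and WT 2, the reverse of Hk2 and Hk3. Phosphofructokinase is the committed step of glycolysis and is built from liver, muscle and platelet type subunits. Pfkp, the platelet type, averaged 428 ± 77.8 CPM (SD, n = 3) in KO and 387 ± 139 CPM (SD, n = 4) in WT, and Pfkl, the liver type, 140.3 ± 46.0 CPM (SD, n = 3) and 155 ± 71.2 CPM (SD, n = 4). Pfkm, the muscle type, was lower than both, and only in WT 1 was it near the limit of detection. It ran from 5.51 to 9.53 CPM in KO and from 0.299 CPM, a single count in WT 1, to 15.9 CPM in WT 4.

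The enzymes that regulate this step spanned a wider range than Pfkp and Pfkl. Pfkfb3 stood at 282, 126 and 49.5 CPM in KO and at 289, 40.7, 79.3 and 81.0 CPM in WT (log2 fold change 0.32 ± 0.73, SE). Pfkfb4 stood at 58.5, 49.3 and 5.65 CPM in KO and at 72.6, 5.48, 19.3 and 46.9 CPM in WT (log2 fold change 0.07 ± 0.90, SE). For both, KO 1 and WT 1 were the highest and KO 3 and WT 2 the lowest libraries, the same order on either side of the genotype contrast. The aldolases split the fructose bisphosphate. Aldoa, the main form, averaged 706 ± 36.3 CPM (SD, n = 3) in KO and 666 ± 180.1 CPM (SD, n = 4) in WT. Aldoc, best known from brain, stood at 17.5, 3.06 and 5.26 CPM in KO and at 17.03, 3.29, 1.39 and 3.18 CPM in WT, so that KO 1 and WT 1 alone exceeded 6 CPM.

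The enzymes of the lower part of the pathway, from triose phosphate to pyruvate, were among the members of narrow range. Tpi1, triose phosphate isomerase, averaged 208 ± 54.8 CPM in KO (SD, n = 3) and 243 ± 52.3 CPM in WT (SD, n = 4), and Gapdh, the dehydrogenase often used as a reference gene, 279 ± 54.3 and 269.9 ± 55.8 CPM. Pgk1, phosphoglycerate kinase on the X chromosome, stood at 693, 327 and 759.5 CPM in KO and at 458, 644, 554 and 536 CPM in WT. KO 2 and KO 3, the libraries with Xist, were the lowest and the highest of the 7. Pgam1, phosphoglycerate mutase, averaged 732 ± 41.2 and 613 ± 149 CPM in KO and WT (SD, n = 3 and n = 4), a log2 fold change of 0.26 ± 0.30 (SE). Pkm, pyruvate kinase of muscle and most other tissues, was the most abundant member: it stood at 1157, 736 and 1535 CPM in KO and at 1698, 753, 789.6 and 1561 CPM in WT. The 2 isoforms of pyruvate kinase M share 1 gene and cannot be separated in these counts.

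Enolase carries a caveat of counting. Eno1, the main enolase, stood at 184, 155 and 139 CPM in KO and at 215, 234, 158 and 141 CPM in WT, but its near-identical copy Eno1b, a single row of the table, held 10000 counts against 5708 for Eno1. Reads of the copies may have been split by the counting, so the level of Eno1 alone is uncertain. Eno1 and Eno1b together gave 525, 337 and 482 CPM in KO and 532, 501, 497 and 515 CPM in WT, or 448 ± 98.7 CPM (SD, n = 3) and 511 ± 15.6 CPM (SD, n = 4). The WT libraries lay closer together for the sum than for Eno1 alone, where their SD was 44.7 CPM. The KO libraries lay farther apart for the sum than for Eno1 alone, where their SD was 23.1 CPM, and KO 2 had the lowest sum. Of the 15 processed pseudogenes named after members (of Gapdh, Pgk1, Pgam1, Ldha, Tpi1 and Aldoa), 14 were at 0 in every library. This search went by symbol, so copies under other names were not examined. Whether such copies took reads from Gapdh or other members was not tested. Eno2, the enolase of neurons and a HIF-1 target, was not tested for low counts. It had 21, 5 and 0 counts in KO 1, 2 and 3 and 0 over the 4 WT libraries, where 0 counts allow up to 0.165 CPM.

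Lactate dehydrogenase is a tetramer of A and B subunits, and the A subunit favours lactate formation. Ldha stood at 806, 486 and 911 CPM in KO and at 619, 925, 755 and 583 CPM in WT (log2 fold change 0.03 ± 0.34, SE). KO 3 and WT 2 were the highest libraries. Ldhb, the other untested member, had 2 counts over the KO libraries, where Ldha had 10411, and 9 counts over the WT libraries, where Ldha had 13980; 7 of the 9 came from WT 1. The RNA of the B subunit was thus at or near the detection limit in both genotypes. Pdk1, the kinase that shuts pyruvate dehydrogenase and keeps pyruvate in the cytosol, averaged 40.7 ± 1.72 CPM (SD, n = 3) in KO and 46.6 ± 12.03 CPM (SD, n = 4) in WT.

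Among the carriers, the 2 glucose transporters and the 2 lactate carriers each held 1 gene of narrow and 1 of wide range. Slc2a3, the high-affinity glucose transporter GLUT3, averaged 368 ± 51.4 CPM (SD, n = 3) in KO and 376 ± 82.1 CPM (SD, n = 4) in WT. Slc2a1, the basal transporter GLUT1 and a HIF-1 target, stood at 164, 61.0 and 40.5 CPM in KO and at 199, 57.8, 89.4 and 93.7 CPM in WT (log2 fold change -0.31 ± 0.55, SE). KO 1 and WT 1 were the highest libraries and KO 3 and WT 2 the lowest. Slc16a1, the carrier MCT1 that moves lactate either way, stood at 88.5, 142 and 72.1 CPM in KO and at 54.1, 98.7, 115 and 69.1 CPM in WT. Its lowest library was WT 1, the one with the highest Slc16a3. Slc16a3 (ENSMUSG00000025161, chromosome 11, 120948480 to 120960868, plus strand) stood at 469, 253 and 48.1 CPM in KO and at 501, 49.8, 193 and 109 CPM in WT (log2 fold change 0.27 ± 0.85, SE). Each genotype thus held libraries at both ends of its range.

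Hif1a, the oxygen-regulated subunit, is controlled mainly at the level of protein stability, which counts of RNA do not measure. It averaged 135 ± 34.96 CPM (SD, n = 3) in KO and 146 ± 31.1 CPM (SD, n = 4) in WT. Egln1, the main prolyl hydroxylase (PHD2), stood at 111, 99.2 and 89.0 CPM in KO and at 125, 153, 166 and 77.3 CPM in WT, a log2 fold change of -0.39 ± 0.31 (SE). All KO libraries lay inside the WT range. Egln3, the hydroxylase PHD3 and itself a HIF-1 target, averaged 298 ± 101 CPM (SD, n = 3) in KO and 285 ± 78.9 CPM (SD, n = 4) in WT.

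Of the other 7 HIF-1 targets, 3 had a positive and 4 a negative log2 fold change. Ankrd37, an ankyrin-repeat gene strongly induced by hypoxia, stood at 13.0, 14.1 and 6.04 CPM in KO and at 32.0, 7.36, 18.1 and 16.4 CPM in WT. Its log2 fold change of -0.74 ± 0.55 (SE) was the largest of the list, and WT 2 lay within the KO range. Vegfa, the vascular growth factor, stood at 59.7, 49.9 and 29.0 CPM in KO and at 98.6, 38.8, 63.8 and 47.4 CPM in WT (log2 fold change -0.43 ± 0.40, SE). P4ha1, a collagen prolyl hydroxylase, stood at 76.4, 56.7 and 29.6 CPM in KO and at 111, 51.1, 54.6 and 50.8 CPM in WT. For both, WT 1 was the highest and KO 3 the lowest library.

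Ndrg1, a stress-responsive gene, stood at 66.3, 27.3 and 10.7 CPM in KO and at 65.4, 15.8, 31.8 and 21.2 CPM in WT, so that KO 1 and WT 1 were nearly equal at the top. Bnip3, a mitophagy receptor, stood at 263, 122 and 94.3 CPM in KO and at 262, 63.6, 127 and 91.3 CPM in WT. Its relative Bnip3l (NIX), which clears mitochondria from maturing red cells, stood at 225, 134 and 69.7 CPM in KO and at 224, 137, 196 and 171 CPM in WT. Both were highest in KO 1 and WT 1, while the lowest library was WT 2 for Bnip3 and KO 3 for Bnip3l. Ddit4 (REDD1), an inhibitor of mTORC1, showed no such order, at 112, 84.8 and 172 CPM in KO and 133, 124, 96.5 and 134 CPM in WT.

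**Figure D2:**
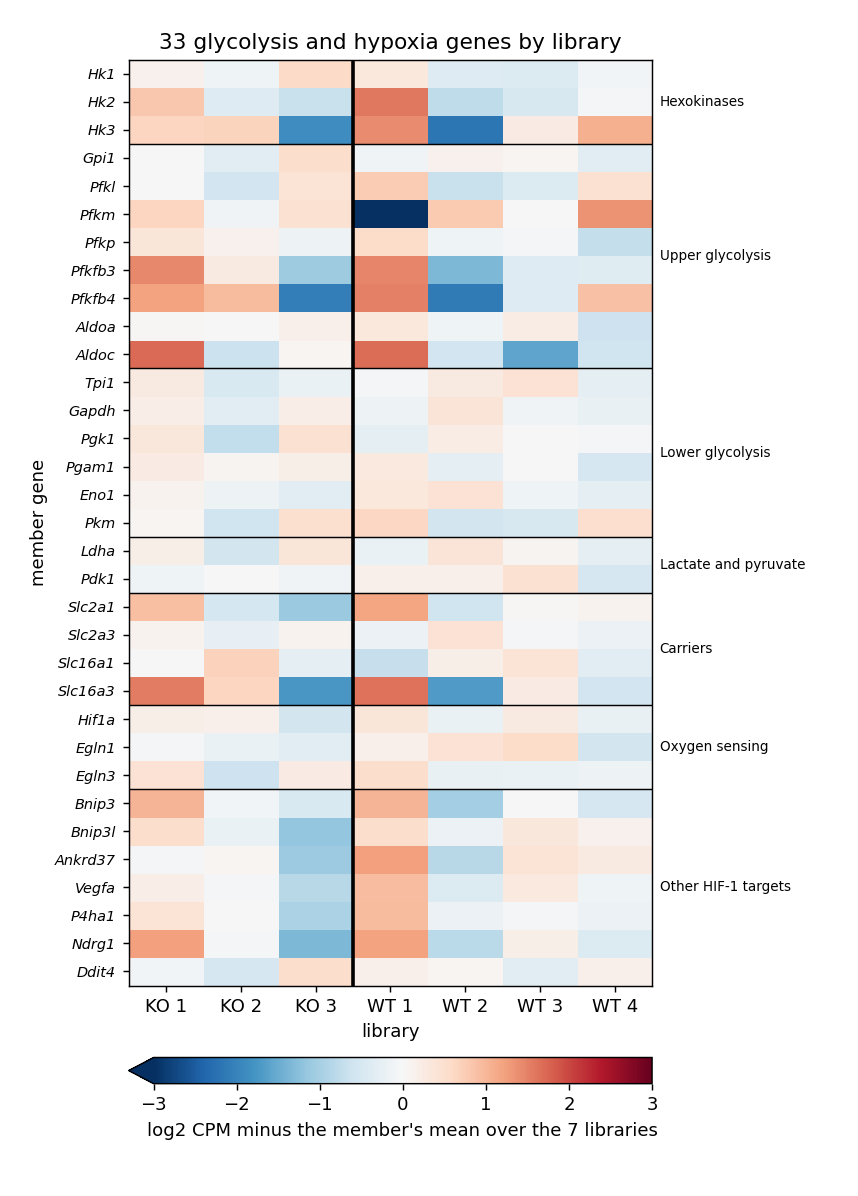
Log2 CPM of the 33 tested members (rows, by role) in the 7 libraries (columns, KO left of WT), each centred on its own mean; red is above and blue below that mean. Rows such as Slc16a3, Pfkfb3, Pfkfb4 and Hk3 are red in KO 1 and WT 1 and blue in KO 3 and WT 2, while Gpi1, Gapdh and Ldha stay pale.

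Members also differed from each other in how far they varied between libraries. On log2 CPM with a prior count of 2, the ratio of the highest to the lowest library was under 4 for 22 members, from 1.61 for Slc2a3 to 3.72 for P4ha1. It was 4 or more for 11 members, a boundary chosen after the values were seen, with Bnip3 at 4.12 just inside: Pfkm at 22.2, Pfkfb4 at 12.3, Hk3 at 11.9, Slc16a3 at 10.3, Aldoc at 9.82, Pfkfb3 at 7.04, Ndrg1 at 5.99, Hk2 at 5.08, Ankrd37 at 5.01 and Slc2a1 at 4.86 complete them. The value of Pfkm rests on the single count in WT 1; over the other 6 libraries its ratio was 2.74. The median member spanned 1.26 on the log2 scale, against 1.73 for the median gene tested. This comparison was not matched for level: 23 of the 33 tested members averaged 100 CPM or more, and counting error widens the ratio at low counts. The wide group held both regulators Pfkfb3 and Pfkfb4, a carrier each of glucose and lactate, Hk2 and Hk3, the minor isoforms Pfkm and Aldoc, and Bnip3, Ankrd37 and Ndrg1. Gpi1, Pfkl, Pfkp, Aldoa, Tpi1, Gapdh, Pgk1, Pgam1, Eno1, Pkm and Ldha, which make up the backbone of the pathway after hexokinase, were all in the narrow group.

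Several members shared their highest or lowest libraries. KO 1 and WT 1 were the 2 highest libraries for 13 of the 33 tested members, and for 13.2% of all genes tested. KO 3 and WT 2 were the 2 lowest for 9 of 33 members (Hk2, Hk3, Pfkfb3, Pfkfb4, Slc2a1, Slc16a3, Ankrd37, Vegfa and Ndrg1) and for 16.2% of all genes. Both held for 6 members and 7.32% of all genes. The opposite order, with KO 3 and WT 2 on top, was found for Gpi1 and Ldha, or 2 of 33, and for 6.25% of all genes. These orders are descriptions. All 10 neutrophil markers had the same lowest pair as the 9 members, with summed levels of 2139 CPM in KO 3 and 2876 CPM in WT 2 against at least 12475 CPM in the others. That lowest pair was also found for 5 of the 8 macrophage markers and 1 of the 2 tested eosinophil markers. It was found for 0 of the tested T cell, B cell, erythroid, and stromal and tumour markers. The part of cell composition in these members' levels was not tested.

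**Figure D3:**
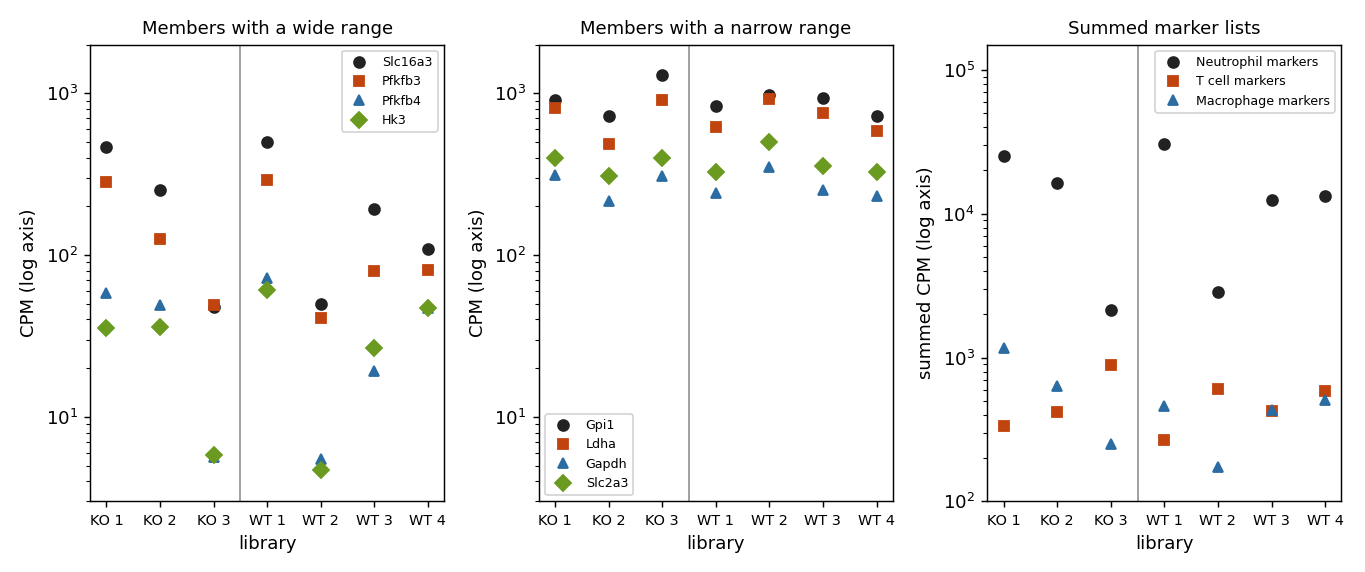
CPM on log axes in each library (KO left of WT) for 4 members of wide range, 4 members of narrow range, and the summed CPM of the neutrophil, T cell and macrophage marker lists. Slc16a3, Pfkfb3, Pfkfb4 and Hk3 are lowest in KO 3 and WT 2, as are the neutrophil and macrophage sums, while Gpi1 and Ldha are highest there.

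Shares within gene families do not depend on how libraries are scaled. For 10 families, the share of 1 member in the family's counts was compared between genotypes by an exact two-sided permutation test over 35 arrangements, whose smallest possible p is 0.0286, and none passed. Counting error on a library's share (Wilson 95% interval) was at most 4.28 percentage points either way, and covers counting error only. The smallest p was for Bnip3l within Bnip3 and Bnip3l: 47.0% ± 5.03 in KO (SD, n = 3) and 60.1% ± 9.77 in WT (SD, n = 4), a difference of -13.0 percentage points (exact permutation p = 0.114, adjusted over the 10 shares 0.714). KO libraries ran from 42.5% (39.2 to 45.9%) to 52.5% (49.1 to 55.8%), and 3 WT libraries lay above them, from 60.6% (58.2 to 63.0%) to 68.2% (65.6 to 70.7%). WT 1, at 46.2% (43.7 to 48.6%), lay among the KO libraries, so the groups overlapped by 1 library.

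None of the other shares passed the test either. Slc16a3 made up 62.8% ± 22.1 of the 2 lactate carriers in KO (SD, n = 3) and 61.9% ± 23.2 in WT (SD, n = 4; exact permutation p = 0.886). It ran from 33.5% (30.6 to 36.6%) in WT 2 to 90.3% (88.8 to 91.5%) in WT 1. Slc16a1 tags thus outnumbered Slc16a3 tags in KO 3 and WT 2, and Slc16a3 tags outnumbered Slc16a1 tags in the other 5 libraries. Slc2a3 made up 81.7% ± 10.1 of the 2 glucose carriers in KO and 77.3% ± 11.4 in WT (exact permutation p = 0.6), and was highest in KO 3, at 90.8% (89.5 to 91.9%). GLUT3 tags thus outnumbered GLUT1 tags in every library. Pfkfb4 made up 18.5% ± 9.03 of Pfkfb3 and Pfkfb4 in KO and 22.0% ± 10.4 in WT (exact permutation p = 0.629), with the lowest share, 10.2% (7.23 to 14.3%), in KO 3. Hk3 made up 4.36% ± 3.25 of the hexokinases in KO and 5.26% ± 3.07 in WT (exact permutation p = 0.714), and was lowest in KO 3, at 1.19% (0.837 to 1.70%), and WT 2, at 1.36% (0.954 to 1.93%).

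Pfkl made up 24.5% ± 8.62 of the phosphofructokinase subunits in KO and 28.2% ± 10.6 in WT (exact permutation p = 0.6), with 42.7% (40.4 to 45.1%) in WT 4, where Pfkp was at its lowest. Egln3 made up 73.7% ± 7.66 of Egln1 and Egln3 in KO and 68.4% ± 9.31 in WT (exact permutation p = 0.429). Egln3 was therefore the larger share in all 7 libraries. Aldoc made up 1.21% ± 1.10 of the aldolases in KO and 0.857% ± 0.791 in WT (exact permutation p = 0.571), and Ldhb 0.0290% ± 0.0318 and 0.0950% ± 0.162 of the lactate dehydrogenases (exact permutation p = 0.857). Eno2 made up 1.05% ± 1.09 of Eno1 and Eno2 in KO (SD, n = 3) and had 0 of 3541 counts in WT, which allows a share of up to 0.0847% (exact permutation p = 0.143). With the uncertain copy Eno1b in the family, its share in KO was 0.408% ± 0.388 (SD, n = 3; exact permutation p = 0.143). The adjusted p of these 9 shares ran from 0.714 to 0.886.

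**Figure D4:**
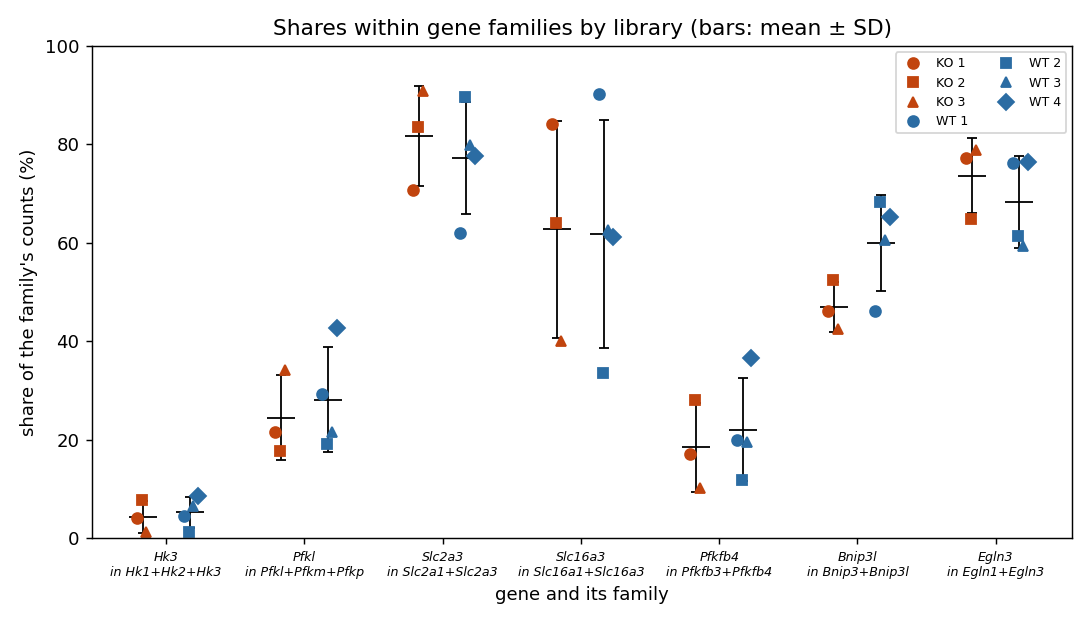
Share of a family's counts (y axis, percent) taken by 1 member in 7 families; each point is a library, orange for KO and blue for WT, and bars give the mean ± SD. Only Bnip3l comes near to separating the genotypes, with WT 1 among the KO libraries, and the Slc16a3 share spans 33.5% to 90.3% within WT.

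Neighbouring pathways were read from 5 companion lists, and 0 of their tested genes were called in either direction. In the pentose phosphate pathway, which makes the NADPH of the oxidative burst, 7 of 7 genes were tested and 4 had a positive log2 fold change. Tkt, transketolase, averaged 142 ± 29.8 CPM in KO (SD, n = 3) and 111 ± 18.1 CPM in WT (SD, n = 4), and Pgls, the lactonase, 182 ± 61.8 and 137 ± 30.3 CPM. Of the genes of pyruvate entry into mitochondria, 8 of 11 were tested and 6 were positive; Dlat, the E2 subunit of pyruvate dehydrogenase, came to -0.47 ± 0.33 (SE) on the log2 scale and Dld, its E3 subunit, to 0.30 ± 0.35. Of 22 other glycolysis and glycogen genes, 11 were tested and 6 were positive, with Pgm1, a phosphoglucomutase, at 0.64 ± 0.39 and Eno3, muscle enolase, at 0.50 ± 0.37. Pklr, Gapdhs, Ldhc and Fbp1, isoforms of other tissues or enzymes of glucose synthesis, were at 0 in all 7 libraries.

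Of the other oxygen-sensing genes, 6 of 7 were tested and 2 were positive, with Egln2, the hydroxylase PHD1, at a log2 fold change of 0.26 ± 0.33 (SE) and Cited2, a competitor of HIF-1 for its coactivator, at -0.20 ± 0.38. Of 20 further HIF targets, 18 were tested, 7 positive and 11 negative. Angptl4, an inhibitor of lipoprotein lipase, stood at 6.80, 5.82 and 13.4 CPM in KO and at 1.195, 5.17, 2.98 and 5.56 CPM in WT. These ranges did not overlap, as for 3.13% of all genes, but its log2 fold change of 1.21 ± 0.69 (SE) did not pass (edgeR adjusted p = 0.99995). Ak4, a mitochondrial adenylate kinase, averaged 72.1 ± 27.9 CPM in KO (SD, n = 3) and 94.3 ± 11.1 CPM in WT (SD, n = 4). The medians of the 5 lists lay between -0.16 for the further HIF targets and 0.18 for the pentose phosphate genes.

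Leaving out single libraries turned the direction of 23 of the 33 tested members in at least 1 fit, while 10 kept their sign in all. Without KO 1, 7 of the 33 members were positive and the median was -0.24, and without KO 3, 11 were positive and the median was -0.08. The median rose to 0.11 without KO 2, with 19 positive, and to 0.07 without WT 1, with 20 positive. In the fits without WT 2, WT 3 or WT 4, 14 were positive each time. All of these fits called 0 members. With the description stem as a covariate, the fold change sets KO 1 alone against the 4 WT libraries, since the other stem held KO libraries alone. It was positive for 25 members with a median of 0.19, values of a single KO library that is assumed to vary like the other libraries.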

How the data were processed

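The values the authors deposited are counts per Ensembl gene, in a single table with 1 column for each of the 7 libraries. The submitters' processing notes list mm10 as genome build and, as tools, DESeq2 and RSEM 1.2.3; RSEM gives expected counts, while the deposited values are whole numbers. The sources used here do not give the annotation, the strand setting or the handling of multi-mapped reads, so genes with near-identical copies are uncertain. Of 51789 genes, 51596 matched a symbol. Coordinates come from GENCODE M21 and promoters from RefSeq, both on GRCm38, the build of mm10.

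Knockout was compared with wild type in edgeR 4.0.16 (R 4.3.3): filterByExpr, TMM factors, the quasi-likelihood F test with robust estimates, Benjamini-Hochberg adjustment over 12506 genes holding 99.6% of the counts, and a call at an adjusted p under 0.05. The test was tested on simulated data. CPM values use TMM library sizes. A count of 0 allows up to 3 counts, or 0.530 to 0.929 CPM in single libraries. These limits, and that of 0.165 CPM over the WT libraries, were taken on total counts without TMM factors. PCR reads without molecular identifiers are not independent, so limits and intervals cover counting error only. Shares needed at least 20 family counts in each library.

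Every member is reported, and from each companion list the 2 tested genes with the smallest p. Members and lists were chosen with earlier results of these data known. Alternatives were RLE factors, DESeq2 1.42.0, no filter, the replicate number as a block, the description stem as a covariate, and leaving out libraries. Summing Eno1 with Eno1b was added after seeing the data. Protein sequences of the lactate dehydrogenases were planned but not used here.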

Additional observations from a re-analysis of the deposited data

Results flagged for a closer look

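In 8 of 43 groups of 4 WT values, 1 library lay far from the other 3, by a gap over its range above Dixon's 95% critical value. For normally distributed values, chance flags about 1 in 20 groups. All groups come from the same 4 libraries and are not independent, so the count of 8 cannot be judged against that rate. The 3 KO libraries were too few for this check. WT 1 stood apart in 6 of the 8 flagged groups: Hk2 at 1041 CPM, Pfkfb3 at 289 CPM, Aldoc at 17.03 CPM, Egln3 at 403 CPM and P4ha1 at 111 CPM, and the share of Ldhb in the lactate dehydrogenases at 0.337% (Wilson 95% interval 0.163 to 0.694%, from 7 counts). WT 2 stood apart for Gapdh at 353 CPM and Slc2a3 at 497 CPM. WT 1 had the highest and WT 2 the lowest summed neutrophil markers of the WT libraries, at 30656 and 2876 CPM, and the part of this in these values was not tested.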

How the results depend on the processing

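With RLE factors, with DESeq2 and with no filter, 33 of 33 members stayed uncalled with the sign they had, and 0 members were called under any alternative. The count over all genes was 0 in every edgeR fit and 1 with DESeq2 (Impdh2-ps, no member, named after its values were seen; log2 fold change -4.94, DESeq2 adjusted p = 0.00429, edgeR adjusted p = 0.99995), where the main fit had 154 genes at an unadjusted p under 0.05 and DESeq2 213. Same-numbered KO and WT libraries deviated together for pair 1 but not for pairs 2 and 3 (correlations over genes of 0.35, -0.22 and -0.18). KO 2 and KO 3 correlated best with WT 1 and WT 2. Uneven cell composition can also move libraries together. These correlations therefore cannot decide whether a number stands for a shared animal or day, which the labels do not say. With the replicate number as a block, 9 members turned: Pfkl at 0.0582, Pfkm at 0.97, Pfkp at -0.00903, Aldoa at -0.0598, Gapdh at -0.0126, Pkm at 0.12, Ldha at -0.0862, Egln3 at -0.0145 and Ndrg1 at -0.24. With the stem covariate, which sets KO 1 alone against WT, 10 turned: Hk2 at 0.43, Hk3 at 0.0286, Pfkm at 0.21, Tpi1 at 0.14, Slc2a1 at 0.58, Slc2a3 at 0.0834, Hif1a at 0.0915, Bnip3l at 0.31, P4ha1 at 0.19 and Ddit4 at -0.12. Without KO 3 and WT 2 together, 8 turned: Hk1 at -0.00808, Gpi1 at -0.0665, Aldoa at -0.0417, Pgk1 at -0.0618, Ldha at -0.0589, Slc2a3 at 0.0309, Egln3 at -0.14 and Ddit4 at -0.34, and the median was -0.06. Leaving out each library in turn kept the sign of 10 members and turned that of 23, with these ranges of the log2 fold change: Hk2 -0.91 to 0.45, Gpi1 -0.15 to 0.34, Pfkl -0.45 to 0.15, Pfkm -0.47 to 0.44, Pfkp -0.0348 to 0.38, Pfkfb3 -0.48 to 1.15, Pfkfb4 -0.39 to 0.62, Aldoa -0.0657 to 0.21, Aldoc -0.55 to 1.68, Gapdh -0.0966 to 0.21, Pgk1 -0.17 to 0.41, Pkm -0.40 to 0.17, Ldha -0.22 to 0.25, Slc2a1 -1.11 to 0.11, Slc2a3 -0.16 to 0.14, Slc16a1 -0.0743 to 0.44, Slc16a3 -0.50 to 1.09, Hif1a -0.23 to 0.0264, Egln3 -0.14 to 0.32, Bnip3 -0.33 to 0.74, P4ha1 -0.63 to 0.0219, Ndrg1 -0.82 to 0.56, Ddit4 -0.37 to 0.22. Those that kept it ran over Hk1 0.0599 to 0.51, Hk3 -0.81 to -0.00898, Tpi1 -0.45 to -0.0721, Pgam1 0.14 to 0.41, Eno1 -0.36 to -0.10, Pdk1 -0.35 to -0.0539, Egln1 -0.58 to -0.25, Bnip3l -0.84 to -0.0729, Ankrd37 -1.003 to -0.36 and Vegfa -0.66 to -0.14. The median ran from -0.24 to 0.11. Share differences that turned ran, in percentage points, over these ranges: Hk3 -2.57 to 0.683, Pfkl -8.56 to 1.14, Aldoc -0.284 to 0.727, Ldhb -0.0977 to 0.0146, Slc2a3 -0.698 to 9.85, Slc16a3 -9.82 to 12.2, Pfkfb4 -8.32 to 1.36; with 1 library left out the exact test cannot reach the threshold. Those that kept their sign were Bnip3l, from -17.6 to -10.3, Egln3, from 2.31 to 9.72, and Eno2, from 0.488 to 1.57. The Eno2 share was 0 in every WT library, so its difference could not turn negative. With Eno1b in its family the Eno2 difference was 0.408, against 1.05 without, and Eno1 summed with Eno1b kept its sign. The cause of these turns was not tested. The main limits are 3 and 4 libraries a group, their uneven levels of cell type markers, and counts of 3′ tags, which cannot separate isoforms of 1 gene.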
